A study of Homo sapiens with 12 samples.

Results

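The insulin-like growth factor (IGF) axis was followed through 10 genes picked by name and matched by Ensembl identifier in the count tables. They were the ligand IGF2, the receptors IGF1R and INSR, the adaptors IRS1 and IRS2, and the binding proteins IGFBP2, IGFBP3, IGFBP4, IGFBP5 and IGFBP6. All 10 were found among the 57820 gene identifiers. The rule uses the names alone, but the names were chosen with earlier results of these data known. RNA was sequenced from G401, an established human rhabdoid tumour line labelled SMARCB1(-/-), so the cells of every group lack the endogenous SMARCB1 gene product, a core subunit of the SWI/SNF chromatin remodelling complexes. Doxycycline induced either GFP, a control protein, or SMARCB1, and each state received DMSO or dBRD9-A for 24 hours. dBRD9-A is a small molecule that causes degradation of BRD9, a subunit of the non-canonical SWI/SNF complex. This gave 4 groups of 3 libraries: GFP cells and SMARCB1 cells, each either in DMSO or under dBRD9-A. How long doxycycline was given and whether n1 to n3 were separate cultures are not given in the sources used here, so p-values measure only the spread between these libraries, which may be technical. All results come from 1 cell line, and no protein, ligand or receptor activity was measured.

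IGF ligands bind the receptor tyrosine kinase encoded by IGF1R, and IGF2 also binds an isoform of the insulin receptor encoded by INSR. The activated receptors phosphorylate the adaptors IRS1 and IRS2, which recruit PI3-kinase and lead to AKT and mTOR signalling and to the exclusion of FOXO factors from the nucleus. The secreted IGF binding proteins hold ligands outside the cell, and proteases that cleave them release the ligand. IGF2 is an imprinted fetal growth factor known for high expression in several embryonal tumours.

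Between 34.97 and 58.54 megacounts (1e6 counts) per library fell on genes. SMARCB1 had 0 to 2 counts in the 6 GFP libraries and reached 1875 ± 59.4 CPM (counts per megacount on scaled library sizes, SD, n = 3) in SMARCB1 cells in DMSO. In SMARCB1 cells with dBRD9-A it stood at 1307 ± 27.0 CPM (SD, n = 3), 1.43-fold lower (edgeR adjusted p = 4.95e-08), and its part in the results for that state was not tested. BRD9 RNA did not pass the test after dBRD9-A in GFP cells (adjusted p = 0.146) or SMARCB1 cells (adjusted p = 0.921), and these counts say nothing of its protein. The mesenchymal marker VIM lay at 1256 to 1337 CPM in the GFP libraries and at 2150 to 2400 CPM in the SMARCB1 libraries, without overlap. Of the markers of other cell types, the leukocyte genes PTPRC and CD3E had 0 counts throughout and the keratinocyte gene KRT5 had 0 to 1. EPCAM had 14 to 44 counts in GFP and 0 to 3 in SMARCB1 libraries, CDH1 had 0 to 4 and 14 to 37, and CDH5 had 0 and 3 to 10. The part of these markers in the results was not tested. In bulk RNA, fewer cells of a type and less RNA per cell cannot be told apart.

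The promoters of the 4 members with the firmest differences are shown because they are the receptor pair that rose and the binding proteins that moved in opposite directions when SMARCB1 was induced. Each is the 250 bases before the RefSeq start in GRCh38.p14, read 5′ to 3′ on the gene's strand, with matches to the GC box GGGCGG (bound by Sp1-family factors) in capitals, on either strand. IGF1R lies at chr15:98648289-98648538 (plus strand), INSR at chr19:7294415-7294664 (minus), IGFBP3 at chr7:45921273-45921522 (minus) and IGFBP6 at chr12:53097417-53097666 (plus).
IGF1R: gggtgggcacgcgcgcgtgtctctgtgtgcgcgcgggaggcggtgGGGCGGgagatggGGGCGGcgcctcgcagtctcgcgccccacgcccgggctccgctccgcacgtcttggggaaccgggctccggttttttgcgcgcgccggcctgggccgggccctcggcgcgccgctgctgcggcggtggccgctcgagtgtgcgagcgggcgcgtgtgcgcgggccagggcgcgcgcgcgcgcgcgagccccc
INSR: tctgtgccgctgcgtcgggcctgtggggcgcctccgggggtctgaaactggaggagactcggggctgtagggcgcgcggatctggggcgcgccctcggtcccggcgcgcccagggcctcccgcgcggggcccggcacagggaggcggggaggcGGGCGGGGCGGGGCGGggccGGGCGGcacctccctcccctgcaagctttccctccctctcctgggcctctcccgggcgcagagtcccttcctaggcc
IGFBP3: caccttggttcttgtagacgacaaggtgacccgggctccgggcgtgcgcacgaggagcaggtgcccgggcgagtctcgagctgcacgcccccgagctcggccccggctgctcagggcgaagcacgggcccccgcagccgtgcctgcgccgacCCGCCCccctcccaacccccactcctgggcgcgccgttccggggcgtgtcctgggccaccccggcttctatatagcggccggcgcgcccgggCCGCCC
IGFBP6: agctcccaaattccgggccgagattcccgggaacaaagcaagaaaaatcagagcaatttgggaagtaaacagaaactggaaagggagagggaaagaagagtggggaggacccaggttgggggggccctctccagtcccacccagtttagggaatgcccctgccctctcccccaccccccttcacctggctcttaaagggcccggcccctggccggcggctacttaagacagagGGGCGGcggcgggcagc
GC content was 81.2% for IGF1R, 78.4% for INSR, 76.0% for IGFBP3 and 61.2% for IGFBP6, beside a median of 58.0% over 35116 promoters. CG dinucleotides numbered 48, 28, 32 and 9 in the same order, beside a median of 11. The GC box occurred 2 times in the IGF1R window, 4 times in INSR, where 3 of the matches each share a base with a neighbour, 2 times in IGFBP3 and 1 time in IGFBP6. It occurs in 42.6% of all promoter windows. The other motifs searched on both strands were CCAAT (in 32.0% of all windows), the TATA box TATAAA (10.7%), the E-box CACGTG (6.34%), the AP-1 motif TGANTCA (6.57%), the FOXO motif TGTTTAC (2.98%) and the insulin response element core CAAAACAA (1.46%). Among these 4 windows the only match was a FOXO motif in IGFBP6, at base -186 from the start. RefSeq entries were used for 9 of the 10 genes, all but IGF2. Of the other windows, IRS1 held 4 GC boxes, IRS2 held 5 with 2 CCAAT boxes and the insulin response element core, and IGFBP4 held 1 GC box and a TATA box at -29. IGFBP2 has 3 windows, of which 2 held 1 GC box each and the other a CCAAT box. IGFBP5 held none of the 7 motifs. A match describes the letters only.

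**Figure D1:**
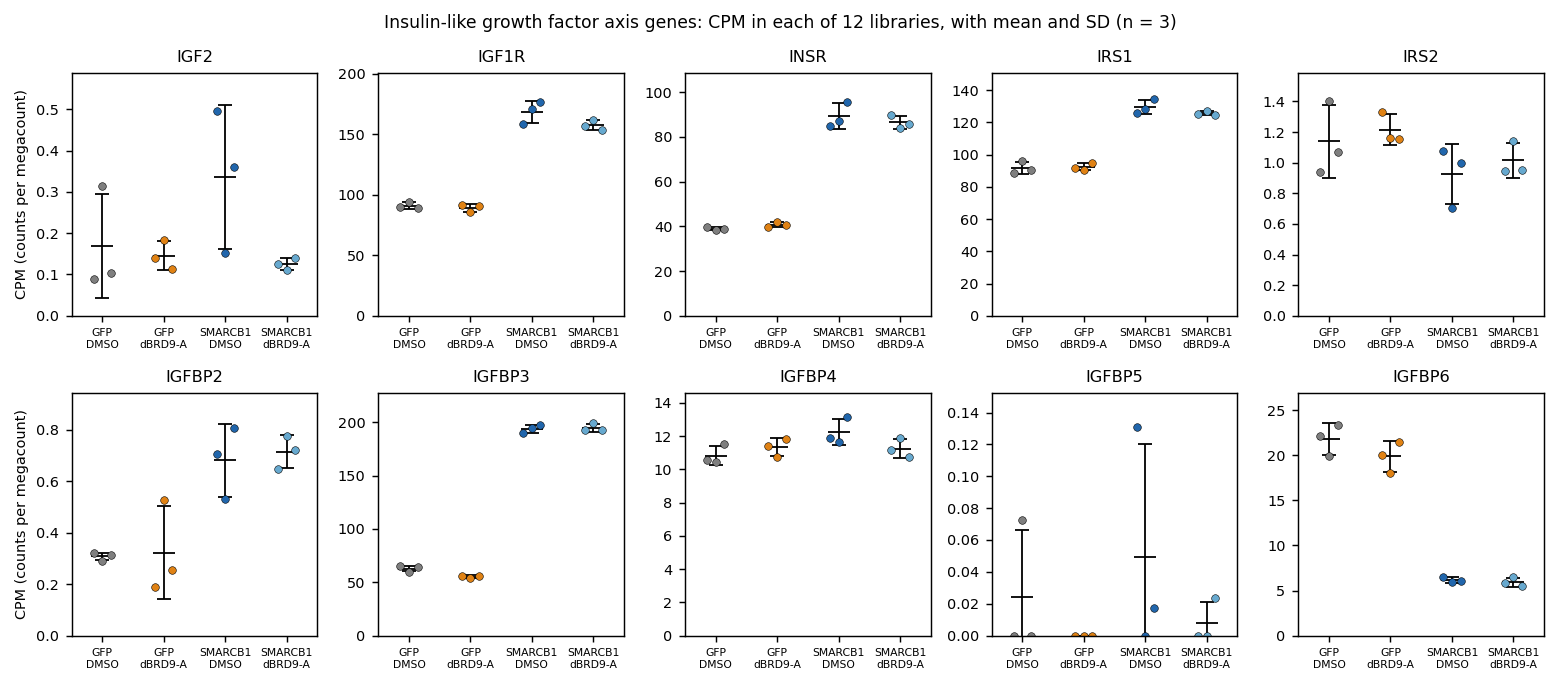
CPM of each of the 10 genes (vertical axis, linear from 0) in the 12 libraries, by group; points are libraries, bars the mean and SD of 3. IGF1R, INSR, IRS1 and IGFBP3 stand higher and IGFBP6 lower in all 6 SMARCB1 libraries than in the 6 GFP libraries, whereas IGF2 and IGFBP5 lie near 0.

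Levels were also taken per length, as CPM per kb of the union of a gene's annotated exons. The order in GFP cells in DMSO was led by IGFBP6 at 16.2 ± 1.29 and IGFBP3 at 13.7 ± 0.597 (SD, n = 3). Then came IRS1 at 9.22 ± 0.389, IGF1R at 6.53 ± 0.200, IGFBP4 at 4.92 ± 0.267 and INSR at 3.73 ± 0.0683 (SD, n = 3). IRS2 followed at 0.140, IGFBP2 at 0.0644, IGF2 at 0.0242 and IGFBP5 at 0.00376. In SMARCB1 cells in DMSO, IGFBP3 led at 42.4 ± 0.875, before IRS1 at 13.0 ± 0.452, IGF1R at 12.1 ± 0.659, INSR at 8.54 ± 0.557, IGFBP4 at 5.56 ± 0.354 and IGFBP6 at 4.60 ± 0.229 (SD, n = 3). IGFBP2 at 0.143, IRS2 at 0.114, IGF2 at 0.0482 and IGFBP5 at 0.00766 followed. IRS1 and IGF1R did not differ beyond their SDs in that group, nor did IGFBP2 and IRS2. With dBRD9-A, the order in each state was the one in DMSO. IGFBP6 thus moved from the top of the order to below IGFBP4. Lengths came from GENCODE 29, which may differ from the annotation behind the counts. The union covers all transcripts of a gene, so it can exceed the length of the transcript in use. It was 4.57 kb for IGFBP3 and 1.35 kb for IGFBP6. Before division by length, IGFBP3 at 62.8 CPM stood above IGFBP6 at 21.8 CPM in GFP cells in DMSO. The order between genes thus depends on the lengths used.

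The first comparison, SMARCB1 against GFP in DMSO, asks what restoring SMARCB1 does to the axis. Of the 9 members with enough counts to test, 7 were higher and 1 lower at an adjusted p under 0.05 (edgeR quasi-likelihood test, Benjamini-Hochberg over 15750 genes). Over all genes, 65.0% passed in this contrast (33.5% higher, 31.6% lower), so a count of 8 of 9 stands against a background in which most genes were called. The members' median log2 fold change was 0.89, beside -0.0047 over all genes. When libraries were scaled to the ERCC spike-ins (synthetic RNAs added from outside) the median over all genes moved by 0.17, and 7 members were called higher and 1 lower, beside 6831 higher and 2581 lower of all genes (5271 and 4974 with TMM scaling).

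The ligand was close to the detection floor. IGF2 (ENSG00000167244.13, chromosome 11) had 5, 13 and 6 counts in GFP cells in DMSO and 19, 6 and 21 in SMARCB1 cells in DMSO. With dBRD9-A it had 6, 7 and 4 counts in GFP cells and 5, 6 and 6 in SMARCB1 cells. The highest GFP library exceeded the lowest SMARCB1 library, so the groups overlapped. The fitted log2 difference of 1.09 ± 0.467 (SE) just passed in edgeR (adjusted p = 0.0498) and did not in DESeq2 (adjusted p = 0.129). Of 19 alternatives, 14 left it uncalled. The sum with INS-IGF2, which had 0 counts, is among the 19 and could only repeat the main fit. Leaving out 1 library at a time gave log2 differences of 0.76 to 1.78, the highest without replicate 2 of GFP cells in DMSO. In SMARCB1 cells, dBRD9-A gave a log2 difference of -1.43 ± 0.50 that did not pass (adjusted p = 0.196). The lowest DMSO library and the highest dBRD9-A libraries there each had 6 counts and were separated in CPM only by their depth. The gene overlaps 5 others in GENCODE 29, among them INS-IGF2 on the same strand and IGF2-AS on the opposite one. INS-IGF2 had 0 counts in every library and IGF2-AS 0 to 1, and whether strand was used in counting is not given in the sources used here. IGF1 and INS, the other ligands of these receptors, had 0 counts in all 12 libraries.

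H19, the imprinted non-coding RNA gene next to IGF2, was well above the floor. Its levels were 5.25, 4.94 and 5.70 CPM in GFP cells in DMSO, 31.5, 29.9 and 30.9 in SMARCB1 cells in DMSO, 4.77, 3.42 and 4.60 in GFP cells with dBRD9-A, and 15.1, 16.1 and 15.3 in SMARCB1 cells with dBRD9-A. SMARCB1 libraries were all above GFP libraries, and within SMARCB1 cells all dBRD9-A libraries were below all DMSO libraries. H19 rose 5.78-fold with SMARCB1 in DMSO (log2 2.53 ± 0.0758 SE, edgeR adjusted p = 4.8e-15). It fell with dBRD9-A in SMARCB1 cells by 0.99 on the log2 scale (adjusted p = 1.14e-07). In GFP cells it fell by 0.32 (adjusted p = 0.0365), but stood at 0.05 with libraries scaled to spike-ins. That call was also lost without replicate 1 or 3 of GFP cells in DMSO, and without replicate 2 of GFP cells with dBRD9-A, where the fall was smallest at -0.18 (adjusted p = 0.188).

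Both receptors rose with SMARCB1. IGF1R (ENSG00000140443.9, chromosome 15), the main signalling receptor for IGF ligands, measured 89.7, 94.2 and 89.0 CPM in GFP cells in DMSO and 158, 171 and 176 CPM in SMARCB1 cells in DMSO. With dBRD9-A it measured 91.6, 85.4 and 90.4 CPM in GFP cells and 157, 162 and 153 CPM in SMARCB1 cells. Every SMARCB1 library exceeded every GFP library. The change in DMSO was 1.85-fold (log2 0.89 ± 0.039 SE, edgeR adjusted p = 1.1e-12). INSR (ENSG00000171105.9, chromosome 19), the insulin receptor, measured 39.6, 38.2 and 39.0 CPM in GFP cells in DMSO and 84.7, 87.2 and 95.8 CPM in SMARCB1 cells in DMSO. With dBRD9-A it stood at 39.6, 42.0 and 40.6 CPM in GFP cells and 89.8, 84.1 and 85.6 CPM in SMARCB1 cells. Its 2.29-fold rise (log2 1.20 ± 0.0431 SE, adjusted p = 6.65e-14) again left no overlap between the states. The ratio of IGF1R to INSR counts within a library was 2.34 ± 0.111 in GFP cells and 1.89 ± 0.0613 in SMARCB1 cells in DMSO (SD, n = 3), with no shared range. IGF2R, the non-signalling receptor that takes up IGF2 for lysosomal breakdown, averaged 165 ± 2.86 CPM in GFP cells and 309 ± 21.3 CPM in SMARCB1 cells (SD, n = 3), rising by 0.91 on the log2 scale (adjusted p = 8.1e-13). IGF2R falls outside the rule for named genes and was added with its values known. INSR has no overlapping gene in GENCODE 29, whereas IGF1R overlaps 4.

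The adaptors did not move together. IRS1 (ENSG00000169047.5, chromosome 2) measured 88.8, 96.1 and 90.3 CPM in GFP cells and 126, 129 and 135 CPM in SMARCB1 cells in DMSO, without overlap. It rose 1.41-fold (log2 0.50 ± 0.0333 SE, edgeR adjusted p = 4.03e-10). IRS2 (ENSG00000185950.7, chromosome 13) was far lower, with 53, 58 and 62 counts in GFP cells and 41, 28 and 58 counts in SMARCB1 cells in DMSO. Its groups overlapped and its log2 difference of -0.27 ± 0.198 (SE) did not pass (adjusted p = 0.242). The 95% interval of that difference ran from -0.69 to 0.15 on the log2 scale. The ratio of IRS1 to IRS2 counts within a library, not scaled by length, was 82.4 ± 13.1 in GFP cells and 145 ± 33.5 in SMARCB1 cells in DMSO (SD, n = 3), without shared range. IRS4 had 0 counts in every library.

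The binding proteins gave the widest differences, in opposite directions. IGFBP3 (ENSG00000146674.10, chromosome 7), the main carrier of IGFs in blood, measured 64.8, 59.7 and 63.9 CPM in GFP cells in DMSO and 190, 195 and 197 CPM in SMARCB1 cells in DMSO. It rose 3.08-fold (log2 1.62 ± 0.0323 SE, edgeR adjusted p = 1.42e-17). IGFBP6 (ENSG00000167779.3, chromosome 12), which prefers IGF2 over IGF1, measured 22.2, 19.9 and 23.4 CPM in GFP cells and 6.54, 5.997 and 6.02 CPM in SMARCB1 cells in DMSO. It fell 3.55-fold (log2 -1.83 ± 0.0802 SE, adjusted p = 1.15e-12). Neither gene's groups overlapped, and within a library the ratio of IGFBP3 to IGFBP6 counts went from 2.88 ± 0.133 to 31.4 ± 2.13 (SD, n = 3). IGFBP2 (ENSG00000115457.5, chromosome 2), a fetal binding protein, had 18, 12 and 18 counts in GFP cells and 27, 21 and 47 counts in SMARCB1 cells in DMSO. Its log2 rise of 1.16 ± 0.301 (SE, adjusted p = 0.00272) rests on these few counts. IGFBP4 (ENSG00000141753.5, chromosome 17), an inhibitor of IGF action, measured 10.5, 10.4 and 11.5 CPM in GFP cells and 11.9, 11.7 and 13.1 CPM in SMARCB1 cells in DMSO. The groups were separated by a narrow gap, and its log2 rise of 0.18 ± 0.0652 (SE, adjusted p = 0.0235) was lost without replicate 1 (adjusted p = 0.0863) or 2 (0.0764) of GFP cells, without replicate 3 of SMARCB1 cells (0.162) and with no filter on low counts (0.0501). IGFBP5 (ENSG00000115461.4, chromosome 2) had 0 to 5 counts and was not tested.

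Taken per kb of exon union, the make-up of IGFBP2 to IGFBP6 transcripts turned over. IGFBP6 made up 46.4% ± 1.03 and IGFBP3 39.3% ± 1.02 of their sum in GFP cells in DMSO (SD, n = 3). In SMARCB1 cells in DMSO, IGFBP3 made up 80.5% ± 0.685 and IGFBP6 8.72% ± 0.564. IGFBP4 held 14.1% ± 0.537 and 10.5% ± 0.508. IGFBP2 held 0.121% to 0.365% over the 12 libraries. A share says nothing of the total, and its size depends on the lengths used.

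**Figure D2:**
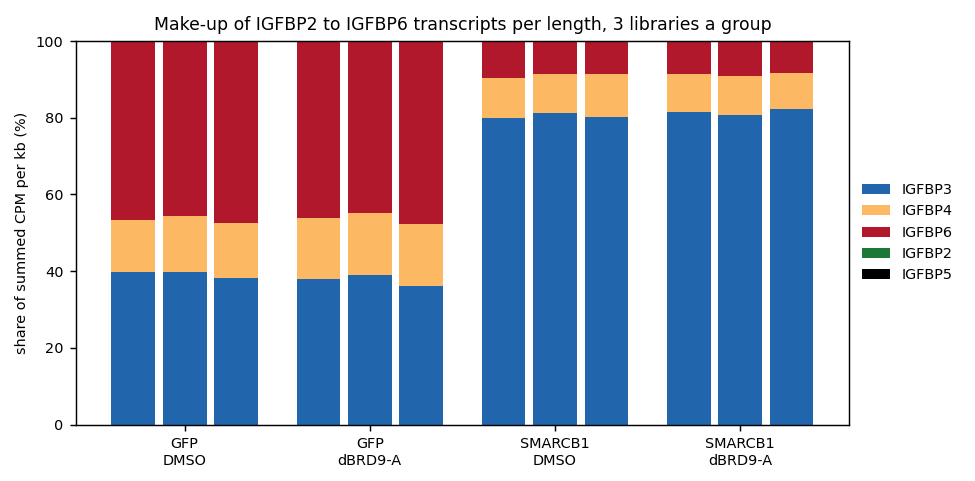
Share (%) of the summed CPM per kb of IGFBP2 to IGFBP6 held by each gene, 1 stacked bar per library, 3 libraries a group. IGFBP3 goes from 39.3% in GFP cells to 80.5% in SMARCB1 cells in DMSO, IGFBP6 from 46.4% to 8.72%; dBRD9-A bars resemble their DMSO bars.

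Around the members, the other genes of the axis included some of the widest differences. IGFBP7, a secreted relative of the binding proteins with low affinity for IGFs, measured 0.905, 0.703 and 0.605 CPM in GFP cells and 202, 193 and 187 CPM in SMARCB1 cells in DMSO. That was a 262-fold rise (log2 8.03 ± 0.0949 SE, edgeR adjusted p = 9.66e-21), which brought the ratio of IGFBP7 to IGFBP3 counts, not scaled by length, from 0.0117 to 1.0. HTRA1, a secreted serine protease that can cleave binding proteins, measured 87.6, 84.1 and 89.2 CPM in GFP cells and 5.99, 5.90 and 5.76 CPM in SMARCB1 cells, a 14.8-fold fall (log2 -3.89 ± 0.0548 SE, adjusted p = 1.12e-19). STC2, an inhibitor of the binding protein protease PAPP-A, had 4, 3 and 6 counts in GFP cells and 129, 113 and 188 in SMARCB1 cells (log2 5.19 ± 0.258 SE, adjusted p = 6.8e-12). Neither HTRA1 nor STC2 overlapped between the states. PAPPA, the gene of PAPP-A itself, had 0, 0 and 1 counts in GFP cells and 24, 21 and 12 in SMARCB1 cells in DMSO. With dBRD9-A it had 0 counts in all GFP libraries and 10, 21 and 13 in SMARCB1 cells. PAPPA falls outside the rule for named genes and was added with its values known. What these levels mean for cleavage was not tested. Since the use of strand in counting is not given, reads of the members IGF2, IGF1R, IRS2 and IGFBP5, and of SMARCB1, BRD9, H19, IGFBP7, HTRA1, PLAGL1, HMGA2, PIK3CD, SESN3, BCL6, BCL2L11, DOK4, TSC1, PHLPP2 and INPP4B, cannot be told apart from those of genes that overlap them on the opposite strand in GENCODE 29.

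**Figure D3:**
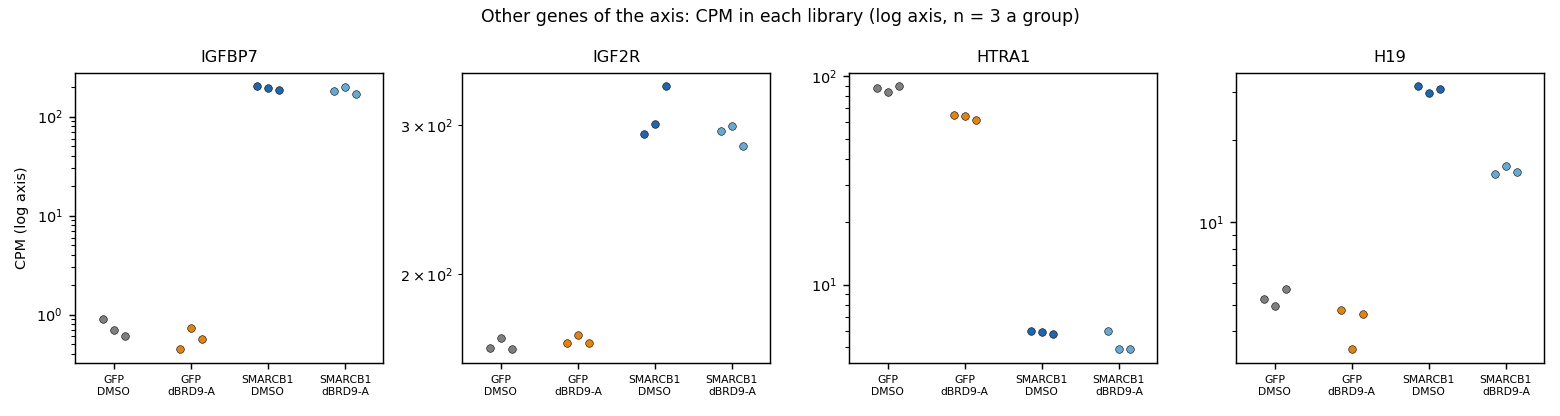
CPM (log axis) of IGFBP7, IGF2R, HTRA1 and H19 in each library, by group; points are libraries, n = 3 a group. IGFBP7 goes from 0.738 to 194 CPM and HTRA1 from 87.0 to 5.88 CPM on average with SMARCB1 in DMSO, and H19 is lower with dBRD9-A in SMARCB1 cells.

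Counts over the wider lists were as follows for SMARCB1 against GFP in DMSO. In this contrast 65.0% of all genes were called, 33.5% higher and 31.6% lower. Of 5 tested genes that take part in cleaving binding proteins or in its control, 3 were higher and 1 lower. Of 15 tested signalling adaptors and feedback genes, 5 were higher and 7 lower. SH2B2, an adaptor of the insulin receptor, fell 4.07-fold (log2 -2.03 ± 0.225 SE, edgeR adjusted p = 3.59e-07). GRB14, of the same list, had 100, 60 and 115 counts in GFP cells and 3, 0 and 2 in SMARCB1 cells in DMSO, a wider gap. GRB14 falls outside the rule for named genes and was added with its values known. Of 30 tested PI3K, AKT and mTOR genes, 14 were higher and 12 lower. PIK3CD, a catalytic PI3-kinase subunit, fell 2.50-fold (log2 -1.32 ± 0.0372 SE, adjusted p = 1.97e-15). Of 17 tested FOXO genes and FOXO targets, 10 were higher and 5 lower. TXNIP and SOD2, also on that list, were not matched by symbol and so enter none of its counts. BCL6 and SESN3, both targets induced by nuclear FOXO factors, were 4.01-fold and 3.81-fold higher, FOXO4 was 2.11-fold higher, and ERBB3, a target known to rise on PI3K inhibition, was 4.15-fold lower. Medians of the log2 differences were 0.07 for the PI3K, AKT and mTOR genes, -0.07 for the adaptors and 0.51 for the FOXO genes, beside -0.0047 over all genes. Scaled to spike-ins, where all genes also tilted to 6831 higher and 2581 lower, the PI3K, AKT and mTOR genes counted 18 higher and 4 lower, the adaptors 6 and 4, and the FOXO genes 12 and 2.

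Of the 9 tested genes known to act on IGF2, 7 were higher and 0 lower, in a contrast that called 33.5% of all genes higher and 65.0% in either direction. PLAGL1, an imprinted zinc-finger factor, had 9, 13 and 4 counts in GFP cells and 240, 257 and 336 in SMARCB1 cells in DMSO (log2 5.17 ± 0.21 SE, edgeR adjusted p = 3.85e-13). PLAG1, a factor that binds IGF2 promoters, went from 0.633 ± 0.116 to 3.30 ± 0.404 CPM (SD, n = 3), 5.2-fold higher (adjusted p = 1.8e-09). HMGA2, which lies upstream of PLAG1 in the control of IGF2, was at 515 ± 18.98 and 513 ± 9.13 CPM and did not pass (adjusted p = 0.916), although spike-in scaling gave 0.16.

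**Figure D4:**
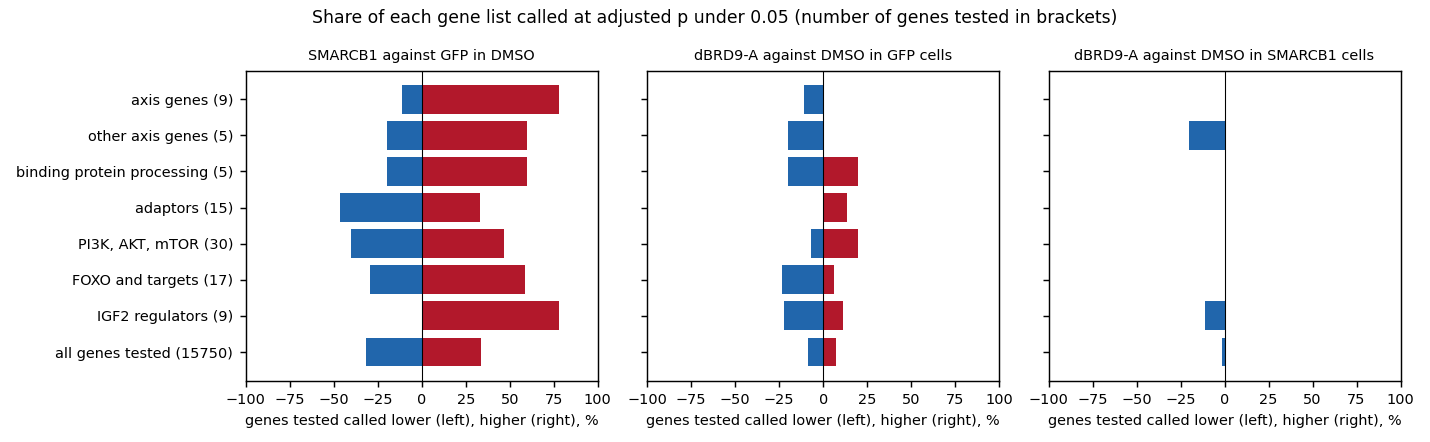
Share of each gene list called at an adjusted p under 0.05 (horizontal axis, %, lower to the left and higher to the right) in 3 comparisons, with the number of genes tested in brackets and all genes tested in the bottom row. With SMARCB1 in DMSO most genes of every list were called, as were 65.0% of all genes. With dBRD9-A in SMARCB1 cells the calls were 1 of 5 other axis genes, 1 of 9 IGF2 regulators and 1.93% of all genes, and the remaining bars are empty.

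The next comparison, dBRD9-A against DMSO in GFP cells, asks what the compound does in cells without SMARCB1. Of the 9 tested members, 1 was called, where 15.9% of all genes were (7.43% higher, 8.47% lower). IGFBP3 was that gene. It measured 56.3, 54.2 and 55.5 CPM with dBRD9-A, all under the lowest DMSO library at 59.7 CPM, and fell by 0.19 on the log2 scale (SE 0.034, edgeR adjusted p = 0.00104), while spike-in scaling, which moved the median of all genes by 0.36, turned it to 0.18 (adjusted p = 0.0186). Relative to the median gene it stood at -0.18 under spike-in scaling. IGF1R stood at -0.03 ± 0.040 (SE, adjusted p = 0.705), INSR at 0.06 ± 0.0457 (adjusted p = 0.392) and IRS1 at 0.01 ± 0.034 (adjusted p = 0.862) on the log2 scale. Their 95% intervals lay between -0.11 and 0.16, so differences of the size seen with SMARCB1 lie outside them. IGFBP6 stood at -0.14 ± 0.0705 (SE, adjusted p = 0.211). The few counts of IGF2 left an interval from -1.3 to 1.1. Scaled to spike-ins, 7 members were called higher, beside 11083 of all genes.

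Some genes around the members were called in GFP cells with dBRD9-A, as were 15.9% of all genes. HTRA1 measured 65.3, 64.2 and 61.7 CPM, all under DMSO, and fell by 0.45 on the log2 scale (edgeR adjusted p = 7.01e-07), but by 0.09 with spike-in scaling (adjusted p = 0.259). GADD45A, a stress-response gene and FOXO target, fell from 18.6 ± 1.21 to 12.1 ± 0.148 CPM (SD, n = 3, adjusted p = 1.53e-06). BCL2L11, which encodes the pro-apoptotic protein BIM, fell from 4.51 ± 0.173 to 3.19 ± 0.495 CPM (SD, n = 3, adjusted p = 0.00222). HMGA2 fell by 0.40 on the log2 scale (adjusted p = 9.34e-07) and PLAGL1, at 1, 1 and 2 counts, lay below the floor of 3 counts (at least 2.33-fold lower, adjusted p = 0.026). The bound was 1.47-fold without replicate 2 of GFP cells in DMSO, and the call was lost without replicate 1 or 2 of either GFP group, with adjusted p up to 0.118. PLAGL1 met the mean of at least 50 counts needed for naming only through the SMARCB1 libraries, at 240 to 336 counts, which are not compared here. DOK4, an adaptor of the insulin receptor, rose from 43.0 ± 0.945 to 59.7 ± 1.87 CPM (SD, n = 3, adjusted p = 4.29e-08), and SESN3 rose 1.76-fold (adjusted p = 0.00624). Over the FOXO list 1 gene was higher and 4 lower of 17. The PI3K, AKT and mTOR list had 6 higher and 2 lower of 30, and the adaptors 2 higher and none lower of 15. Among all genes, 7.43% were higher and 8.47% lower. Scaled to spike-ins, the FOXO genes counted 11 higher and 1 lower, the PI3K, AKT and mTOR genes 29 and 0, and the adaptors 12 and 0. All genes then counted 11083 higher and 227 lower. With spike-in scaling HMGA2 stood at -0.04 (adjusted p = 0.591) and BCL2L11 at -0.14 (adjusted p = 0.289), both no longer called.

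In SMARCB1 cells, dBRD9-A against DMSO called 0 of the 9 tested members with edgeR and 0 of the 7 that had an adjusted p in DESeq2, where 1.93% of all genes were called (0.679% higher, 1.25% lower), and 2 members, IGF2 and IGF1R, had an unadjusted p under 0.05. IGF1R averaged 168 ± 9.19 CPM (SD, n = 3) in DMSO, and the mean after dBRD9-A was 157 ± 4.08 CPM (SD, n = 3). The groups overlapped, and the log2 difference was -0.10 ± 0.0382 (SE, adjusted p = 0.258). INSR at -0.05, IRS1 at -0.05 and IGFBP3 at 0.01 on the log2 scale did not pass, and their 95% intervals lay between -0.14 and 0.07. IGFBP3 measured 190, 195 and 197 CPM in DMSO and 193, 200 and 193 CPM with dBRD9-A, so the libraries overlapped throughout. IGFBP6 measured 5.81, 6.47 and 5.47 CPM with dBRD9-A, within reach of the 5.997 to 6.54 CPM in DMSO. Spike-in scaling moved the median of all genes by -0.14 and called IGF2 and IGF1R lower. Besides H19, HMGA2 was the other gene of the lists that passed, from 513 ± 9.13 to 421 ± 21.0 CPM (SD, n = 3, adjusted p = 0.000411). Over the PI3K, AKT and mTOR genes, the adaptors and the FOXO genes, 0 were called by edgeR, with 2, 0 and 2 at an unadjusted p under 0.05. DESeq2 called 0 of the 29, 15 and 16 to which it gave an adjusted p.

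**Figure D5:**
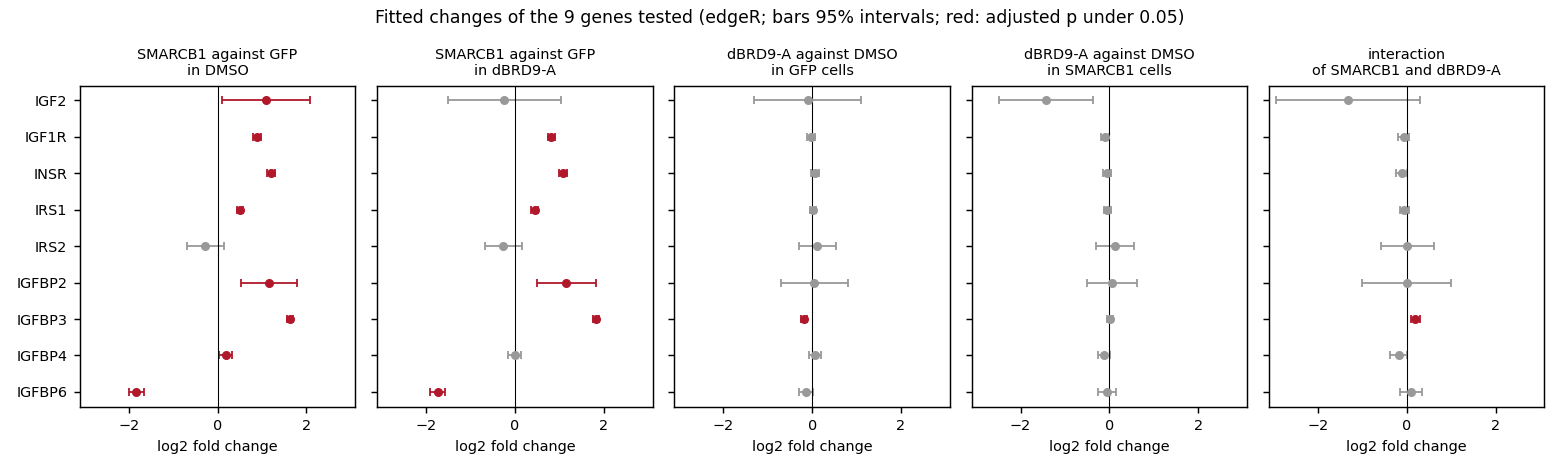
Log2 fold changes (horizontal axis) of the 9 tested genes in the 5 comparisons, from edgeR; bars are 95% intervals and red marks an adjusted p under 0.05. With SMARCB1, IGF1R, INSR, IRS1, IGFBP2 and IGFBP3 lie right of 0 and IGFBP6 left in DMSO and in dBRD9-A; in the 2 panels of dBRD9-A against DMSO only IGFBP3 in GFP cells is red.

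The interaction tests whether the response to dBRD9-A differed between the cell states, and called 1 of the 9 tested members, beside 3.80% of all genes (2.15% higher, 1.65% lower). For IGFBP3 the difference between the responses was 0.19 ± 0.0458 (SE, edgeR adjusted p = 0.0221), from -0.18 in GFP cells to 0.01 in SMARCB1 cells. Leaving out single libraries lost it in 5 of 12 fits, with adjusted p up to 0.0845. These were the fits without replicate 1 or 3 of GFP cells in DMSO, 1 of SMARCB1 cells in DMSO, and 2 or 3 of GFP cells with dBRD9-A. With spike-in scaling, whose median over all genes was -0.49, it stood at -0.30. The other 8 members did not pass, with adjusted p of 0.353 or more. Among the neighbouring genes, H19 responded more in SMARCB1 cells (interaction -0.67 ± 0.12 SE, adjusted p = 0.00294).

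Finally, SMARCB1 was compared with GFP while BRD9 was targeted in both. This comparison shares no library with the one in DMSO. Both came from the same fit to all 12 libraries with a shared estimate of the spread, so their p-values are not independent. Of 9 tested members, 5 were higher and 1 lower, beside 63.3% of all genes called (33.0% higher, 30.4% lower). IGFBP3 was 3.53-fold higher (log2 1.82 ± 0.0332 SE, edgeR adjusted p = 4.84e-18), from 55.3 ± 1.09 to 195 ± 3.77 CPM (SD, n = 3). INSR was 2.12-fold higher (adjusted p = 4.03e-13), IGF1R 1.77-fold (adjusted p = 4.6e-12) and IRS1 1.36-fold (adjusted p = 2.82e-09), the last at a log2 of 0.11 with spike-in scaling (adjusted p = 0.143). IGFBP6 was 3.34-fold lower, from 19.9 ± 1.73 to 5.92 ± 0.511 CPM (SD, n = 3, adjusted p = 3.69e-12). IGFBP2, with 8, 20 and 9 counts in GFP cells and 26, 42 and 31 in SMARCB1 cells, was 2.23-fold higher (adjusted p = 0.00386). IGFBP4, called in DMSO, stood at a log2 of -0.01 here (adjusted p = 0.944), and the difference between the comparisons, which is the interaction, did not pass (adjusted p = 0.353). IGF2 stood at -0.24 ± 0.602 (SE, adjusted p = 0.757). IGFBP7 was 317-fold higher and HTRA1 12.2-fold lower, and STC2, at 0 to 3 counts in GFP cells, was at least 28.1-fold higher. Spike-in scaling moved the median of all genes by -0.32 and called 2129 of all genes higher and 9046 lower. It called 4 members higher and 3 lower, with IGFBP4 and IRS2 joining IGFBP6.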

How the data were processed

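The authors deposited 3 tables of expected counts per gene, each setting 2 groups of libraries side by side, and libraries present in several tables had identical values. Per the submitters' processing notes, STAR, RSEM 1.3.1 and DESeq2 were used with builds GRCh37 and hg19. The annotation release and the use of strand in counting are not given in the sources used here. Per the labels' protocols, library preparation used a TruSeq Stranded mRNA kit. RSEM shares reads that map to several genes, so the deposited estimated counts need not be whole (97.43% of values were). They were rounded here. Symbols were matched by unversioned identifier for 51996 of 57820 identifiers. The 40 ERCC spike-in identifiers (0.9634% to 1.302% of counts) entered neither library sizes nor tests. The labels do not say whether spike-ins were matched to cells or to RNA.

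Genes passing filterByExpr with a minimum count of 10 (15750) were tested in R 4.3.3 with edgeR 4.0.16, by a quasi-likelihood fit to all 12 libraries with TMM scaling (factors 0.9765 to 1.016), 1 coefficient per group and Benjamini-Hochberg adjustment. An adjusted p under 0.05 was the threshold. Standard errors came from the quasi-F statistic. The test was checked on simulated data. A floor of 3 counts per library corresponded to 0.0516 to 0.0847 CPM and covers counting error only. Replicates differed by more than sampling noise (chi-square per degree of freedom 2.89 to 23.8), so no pair was taken for repeat deposits of 1 library. This does not show that they came from separate cultures. Alternatives were RLE size factors, DESeq2 1.42.0, spike-in scaling, no filter, a replicate block, only the groups compared, IGF2 summed with INS-IGF2, a log2 fold limit of 1 and leaving out each library.

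The members and gene lists were chosen with earlier results of these data known. All 10 members are named whatever their values. From the lists, up to 12 genes per contrast were named, those with the largest log2 difference among genes past the threshold with a mean of at least 50 counts and no overlap between groups. That mean was taken over all 12 libraries, so a gene could meet it only through the groups where it was high. SMARCB1, BRD9, INS-IGF2, IGF2-AS and H19 were named whatever their values. Promoters came from RefSeq (GRCh38.p14) and gene lengths and overlaps from GENCODE 29, so no coordinates of the count tables are given.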

Additional observations from a re-analysis of the deposited data

Results flagged for a closer look

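Among the 10 members and the gene lists around them, 8 genes had a response to dBRD9-A that differed between SMARCB1 and GFP cells by the interaction test (edgeR, adjusted p under 0.05, Benjamini-Hochberg over 15750 genes), a test that called 598 of all genes (3.80%), and each value below is the log2 response in SMARCB1 cells minus that in GFP cells. IGFBP3 stood at 0.19 (adjusted p = 0.0221). H19 stood at -0.67 (adjusted p = 0.00294), with 31.5, 29.9 and 30.9 CPM in DMSO and 15.1, 16.1 and 15.3 CPM with dBRD9-A in SMARCB1 cells. GADD45A stood at 0.55 (adjusted p = 0.000501), with a fall in GFP cells from 18.6 to 12.1 CPM and means of 35.3 and 33.5 CPM in SMARCB1 cells. With spike-in scaling it stood at 0.05 (adjusted p = 0.72). DOK4 stood at -0.40 (adjusted p = 0.000145), with a rise in GFP cells from 43.0 to 59.7 CPM and means of 30.5 and 32.0 CPM in SMARCB1 cells. TSC1, part of the complex that restrains mTOR, stood at -0.27 (adjusted p = 0.00694), with means of 35.2 and 41.4 CPM in GFP cells and 51.1 and 49.8 CPM in SMARCB1 cells. PHLPP2, a phosphatase of AKT, stood at -0.24 (adjusted p = 0.0287) and was called in 9 of 17 alternatives. INPP4B, a phosphoinositide phosphatase, stood at 0.18 (adjusted p = 0.00951), with means of 229 and 201 CPM in GFP cells and 219 and 217 CPM in SMARCB1 cells. ADAMTS1, an extracellular protease, stood at -0.20 (adjusted p = 0.0124), with means of 264 and 292 CPM in GFP cells and 259 and 249 CPM in SMARCB1 cells. SMARCB1 RNA itself was 1.43-fold lower with dBRD9-A in SMARCB1 cells, and its part in these differences was not tested.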

How the results depend on the processing

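Over 797 alternative values for the tested members, 721 kept their direction and their side of the threshold. Of the rest, 34 stayed uncalled but changed sign, 24 lost the call, 13 gained one, and 5 changed sign with a call. The 721 include the sums of IGF2 with INS-IGF2, which could only repeat the main fit. Leaving out 1 library at a time gave 9648 to 10491 called genes for SMARCB1 against GFP in DMSO (6 to 8 members), 9352 to 10072 with dBRD9-A (6 members), 1778 to 2804 for dBRD9-A in GFP cells (1 member), 169 to 422 in SMARCB1 cells (0 members) and 422 to 862 for the interaction (0 to 1 member). In SMARCB1 cells dBRD9-A called 174 genes without replicate 2 and 169 without replicate 3 of the DMSO group, and 195 without replicate 3 of the dBRD9-A group, against 304 with all libraries. Without replicate 2 of the dBRD9-A group it called more, 422, and the interaction then called 862, against 598 with all libraries. In SMARCB1 cells dBRD9-A called 652 with no filter and 159 with only the groups compared.

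With a log2 fold limit of 1, 2305 genes and 5 members were called for SMARCB1 against GFP in DMSO, 2300 genes with dBRD9-A, 143 genes and 0 members for dBRD9-A in GFP cells, 23 genes in SMARCB1 cells, and 42 genes and 0 members for the interaction. Spike-in scaling called 11310 genes and 7 members for dBRD9-A in GFP cells, 873 genes and 2 members in SMARCB1 cells, and 11270 genes and 7 members for the interaction. Among named genes called under TMM or spike-in scaling, it turned the sign of the following log2 values. For SMARCB1 against GFP in DMSO these were HMGA2 (0.16), INPP4B (0.10) and SOCS3 (0.00). For dBRD9-A in GFP cells they were IGF1R (0.33), IGFBP3 (0.18), IGFBP6 (0.23), H19 (0.05) and INPP4B (0.17). For the interaction they were IGFBP3 (-0.30), IGFBP6 (-0.42), HMGA2 (-0.38) and INPP4B (-0.32). For SMARCB1 against GFP with dBRD9-A they were BRD9 (-0.12), HMGA2 (-0.22), TSC1 (-0.06), PHLPP2 (-0.25) and INPP4B (-0.21). Values called under neither scaling also changed sign for some genes and are not listed. This scaling shifts every gene of a library alike, and what the spike-ins were matched to is not given in the sources used here. The cause of the changes under spike-in scaling was not tested.

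Same-numbered libraries did not deviate together (correlations -0.0559 to 0.0611), so the numbers were not taken to pair the samples. With the replicate block, 10113, 2233, 254, 529 and 9812 genes were called in the comparisons SMARCB1 in DMSO, dBRD9-A in GFP cells, dBRD9-A in SMARCB1 cells, interaction and SMARCB1 with dBRD9-A. IGF2 in DMSO was the only member to change its call (adjusted p = 0.068). At 4 to 21 counts, the 95% interval of IGF2 for dBRD9-A in GFP cells ran from -1.3 to 1.1 on the log2 scale, so smaller differences were not detectable at this depth.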

Other observations

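By Pearson correlation of log2(CPM + 0.5) over the 12 libraries, the genes whose levels most resembled IGF2 among 12585 genes were NOVA1, a neuronal splicing regulator (r = 0.811), NACA, a ribosome-associated chaperone (r = 0.782), and VPS37C, an endosomal sorting subunit (r = 0.768). These are descriptions with no test, over libraries that share depth and group differences, and IGF2 had only 4 to 21 counts. IGFBP1 and GRB10 had 0 counts in every library.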
